A study of Mus musculus with 4 samples.

Results

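The BCL2 family of death regulators was followed on 4 oligonucleotide arrays of mouse heart and skeletal muscle. The family was taken as 10 named genes: the survival genes Bcl2, Bcl2l1 and Mcl1, the pore-forming genes Bax and Bak1, the BH3-only genes Bcl2l11, Bid, Bad and Bbc3, and Bnip3. All probe sets were used that the platform annotation gives 1 of these symbols, which were 29 of 45037 probe sets, for 9 of the 10 genes. The annotation used here lists no probe set under Bax, so Bax was not analysed here. The rule picks genes by name and uses no measured value, but the list was drawn up with earlier results of these data known.

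Heart and muscle of f/f and of d/d mice made up the 4 groups, with 1 array each. Mice of the d/d genotype had lost the floxed MnSOD gene (Sod2), which encodes the superoxide dismutase of mitochondria, through an MCK-Cre transgene. The MCK promoter is that of muscle creatine kinase, which is active in cardiac and skeletal muscle fibres and not in the other cells of these tissues. The f/f control mice carried the floxed gene. The labels give no age, sex or strain, do not say whether f/f mice carried Cre, do not name the muscle, and do not say whether samples were pooled or whether 1 mouse gave both its heart and its muscle. With 1 array per group there was no error between animals, so each difference describes a pair of arrays.

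Proteins of this family decide whether the outer mitochondrial membrane stays intact. BCL2, BCL-xL (from Bcl2l1) and MCL1 hold the pore-formers BAX and BAK in check, and BH3-only proteins, which sense stress, bind the survival proteins or activate the pore-formers directly. Once the pore opens, cytochrome c leaves the mitochondrion and starts the caspase cascade. BNIP3 is a mitochondrial protein with a BH3-like part that is best known for marking mitochondria for removal by autophagy. Heart muscle is known to depend on MCL1.

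The stretches upstream of 3 of these genes are shown because Bcl2 and Bcl2l11 had the most probe sets past 2-fold between the hearts, and because Bnip3, known as a hypoxia-induced gene, differed little. Each is the 250 bases before the annotated start, 5′ to 3′ on the strand of the gene, in RefSeq's GRCm38.p6 build. They lie at chr1:106714291-106714540 on the minus strand (Bcl2), at chr2:128125788-128126037 on the plus strand (Bcl2l11, the first of 2 annotated starts) and at chr7:138909507-138909756 on the minus strand (Bnip3). Capitals mark matches to 3 short motifs.
Bcl2: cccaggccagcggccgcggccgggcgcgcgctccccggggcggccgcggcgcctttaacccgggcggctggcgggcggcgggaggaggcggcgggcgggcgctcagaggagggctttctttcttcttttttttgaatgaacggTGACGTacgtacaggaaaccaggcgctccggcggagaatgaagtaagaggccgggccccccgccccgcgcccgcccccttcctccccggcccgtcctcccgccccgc
Bcl2l11: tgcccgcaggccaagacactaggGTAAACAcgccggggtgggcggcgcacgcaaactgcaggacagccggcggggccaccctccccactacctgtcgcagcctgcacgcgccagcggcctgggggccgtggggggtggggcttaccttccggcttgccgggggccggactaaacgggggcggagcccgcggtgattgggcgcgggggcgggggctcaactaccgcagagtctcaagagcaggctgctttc
Bnip3: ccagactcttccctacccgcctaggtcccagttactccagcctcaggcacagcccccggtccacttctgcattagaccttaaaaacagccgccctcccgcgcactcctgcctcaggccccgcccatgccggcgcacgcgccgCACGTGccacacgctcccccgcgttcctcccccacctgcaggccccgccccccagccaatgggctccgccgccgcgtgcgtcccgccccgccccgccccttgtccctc

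The motifs were searched on both strands. TGACGT, the core of the CREB motif, was found 107 bases before the Bcl2 start and in 6.47% of all 32851 windows of this length. GTAAACA, a FOXO motif, was found 227 bases before the first Bcl2l11 start and in 3.17% of all windows. ACGTG, the core of the hypoxia response element, was found in the Bnip3 window on both strands of the same 6 letters, and in 16.6% of all windows. All 10 genes had at least 1 window, 16 in all. Among the other windows, the FOXO motif was also present upstream of the second start of Bbc3, and the hypoxia motif upstream of Bax and of the third start of Bbc3. A match describes these letters only.

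Signals are given as intensity after each array was scaled to a common trimmed mean. A signal under the floor of 7.51 was set to the floor, and a fold against the floor is a lower bound. Of the 29 family probe sets, 25 were above the floor on at least 1 of the heart arrays and 25 on at least 1 of the muscle arrays. A probe set was counted as different at 2-fold or more. As a technical yardstick, the differences between probe sets of the same gene had an SD of 0.39 on the log2 scale in heart and 0.40 in muscle. It was pooled over all genes, from probe sets above the floor on both arrays. A member's own SD in heart, bounds included, ran from 0.09 for Mcl1 and Bad to 0.81 for Bcl2 and 0.87 for Bak1. The 4 arrays had 58.0% to 61.1% of probe sets above the floor. The 4 probe sets of Sod2, the targeted gene, had differences of -1.22 to -0.21 on the log2 scale in heart and -0.44 to 0.06 in muscle, and the sources used here do not place them relative to the deleted part. The 10 cardiac markers were all at least 2-fold higher in heart than in muscle in each genotype. The 10 skeletal markers were lower in heart, all by at least 2-fold except Acta1, skeletal actin, in d/d mice, at 4668 in heart and 9333 in muscle.

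In heart, Bcl2 was higher and Bcl2l11 was lower on the d/d array. Of 25 measured probe sets of the family, 4 were higher in d/d heart by 2-fold or more, against 3.66% of all measured probe sets, and 3 at least 2-fold lower, against 4.54%. The 4 were 3 of Bcl2 and 1 of Bid, and the 3 were all of Bcl2l11. The median difference over the family's probe sets was 0.10 on the log2 scale, beside -0.06 over all 29960 measured probe sets. In d/d against f/f muscle, 4 of 25 were at least 2-fold higher, against 3.13% of all, and 2 lower, against 3.4%. These were 2 of Bcl2l11 and 1 each of Bak1 and Bad on the high side, and 1 each of Bcl2 and Bad on the low side. By the mean over the 4 arrays, the Bak1 probe set and the higher of the Bad probe sets were the brightest of their genes. The Bcl2 and Bcl2l11 probe sets past 2-fold in muscle were not. In muscle itself neither Bad probe set was the brighter throughout, at 13.5 and 30.1 in f/f and 29.3 and 13.8 in d/d. None of the muscle counts held under a floor at the 60th percentile, where 0 were higher and 0 lower.

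**Figure D1:**
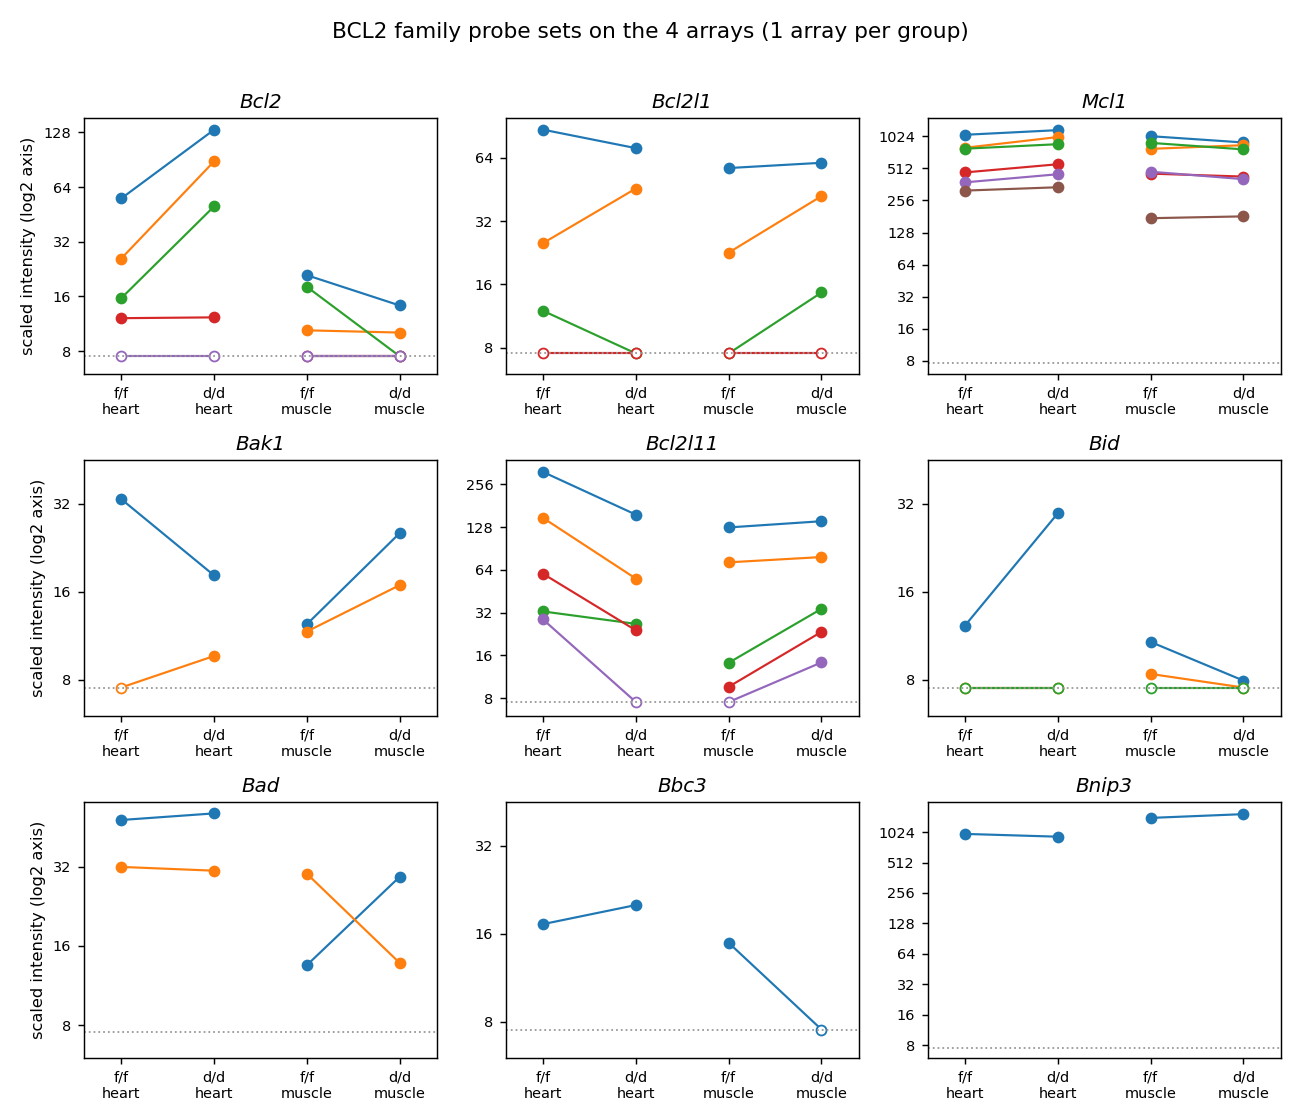
Scaled intensity (log2 axis) of every probe set of the 9 genes on the 4 arrays, 1 array per group. Each colour is a probe set, lines join the f/f and d/d arrays of a tissue, and open circles mark signals at the floor of 7.51 (dotted line). The 3 brightest Bcl2 probe sets are higher in d/d than in f/f heart, all 5 of Bcl2l11 are lower, and the 6 of Mcl1 are nearly level.

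Bcl2, the founding survival gene of the family, had 5 probe sets. The brightest, 1457687_at, read 55.3 in f/f heart and 132 in d/d heart, then 21.0 in f/f muscle and 14.3 in d/d muscle. Probe set 1437122_at read 25.8, 88.5, 10.4 and 10.1 on the same arrays in that order. Probe set 1422938_at read 15.6, 50.0 and 18.1 on the first 3 and was at the floor in d/d muscle. On each of these the d/d heart array was the highest of the 4, by 2.39-fold, 3.42-fold and 3.20-fold over f/f heart. In muscle the differences were -0.55 and -0.04 on the log2 scale for the first 2 probe sets, and the last was at least 2.41-fold lower in d/d. The dimmer 1443837_x_at read 12.2 in the f/f and 12.3 in the d/d heart, with both muscle arrays at the floor. The 5th, 1440770_at, was at the floor on all 4 arrays. Under the 6 other ways of scaling and setting the floor, the 3 probe sets stayed at least 2-fold higher in d/d heart, with the brightest between 1.05 and 1.30 on the log2 scale.

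Bcl2l1, which encodes the survival protein BCL-xL and its short form, had probe sets that disagreed. The brightest, 1420888_at, read 87.2 in f/f and 71.2 in d/d heart, then 57.3 in f/f and 60.7 in d/d muscle, log2 differences of -0.29 and 0.08. Probe set 1420887_a_at read 25.2, 45.8, 22.7 and 42.1 on these arrays. It was higher in d/d in each tissue, 1.82-fold in heart and 1.86-fold in muscle. Probe set 1426191_a_at, near the floor, was at least 1.60-fold lower in d/d heart and at least 1.95-fold higher in d/d muscle. The 4th, 1426050_at, was at the floor throughout.

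Mcl1, a survival protein with a rapid turnover, was bright on all its 6 probe sets. The signals of its brightest, 1437527_x_at, were 1061 and 1174 in f/f and d/d heart, and 1030 and 899 in f/f and d/d muscle. All 6 probe sets were higher in d/d heart, by 0.10 to 0.34 on the log2 scale, a mean of 0.21 (SD 0.09 between probe sets). In muscle 2 were higher and 4 lower, from -0.23 to 0.11. Each of these differences was smaller than the yardstick.

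Bak1 encodes the pore-former BAK, which sits on the outer mitochondrial membrane. Its brighter probe set, 1418991_at, read 33.2 in the f/f heart and 18.2 in the d/d heart, then 12.4 in f/f and 25.4 in d/d muscle. It was 1.83-fold lower in d/d heart and 2.05-fold higher in d/d muscle. The other, 1425716_s_at, was at the floor in f/f heart and read 9.63 in d/d heart, 11.7 in f/f muscle and 16.8 in d/d muscle. The probe sets thus pointed to opposite sides in heart and to the same side in muscle, at signals close to the floor.

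Bcl2l11 encodes BIM, a BH3-only protein that binds all the survival proteins. Its brightest probe set, 1456005_a_at, read 313 in f/f heart against 157 in d/d heart, then 127 in f/f muscle against 141 in d/d muscle. In the same order, probe set 1435448_at read 149, 55.6, 72.4 and 78.9, and 1435449_at read 60.1, 24.0, 9.62 and 23.4. Probe set 1456006_at read 32.6, 26.7, 14.2 and 34.1. On 1426334_a_at the signal was 28.6 in f/f heart and 14.3 in d/d muscle, and the other arrays were at the floor. The f/f heart array was the highest on 4 of the 5, and on 1456006_at d/d muscle was slightly above it. All 5 were lower in d/d heart, with log2 differences of -0.9988, -1.42, -1.32 and -0.29 in the order given, and the last was at least 3.81-fold lower. Their mean, with the last at its bound, was -1.19 on the log2 scale (SD 0.61 over the 5). With no floor and a pseudocount of 16, 1 of the 3 past 2-fold, 1435448_at, stayed past it. The first fell just short of 2-fold and passed it under 2 of 6 other settings.

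In muscle the Bcl2l11 probe sets were on the other side. All 5 were higher in d/d muscle. The brighter 2 differed by log2 values of 0.15 and 0.12, less than the yardstick. The dimmer 1456006_at and 1435449_at differed more, 2.40-fold and 2.44-fold, and 1426334_a_at at least 1.90-fold. The probe sets of Bcl2l11 thus agreed in sign within each tissue and not in size.

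Bid, whose protein links death receptors to mitochondria after caspase cleavage, was read by 1 of its 3 probe sets in heart. Probe set 1417045_at read 12.2 in f/f and 29.7 in d/d heart, then 10.8 in f/f and 7.94 in d/d muscle. The d/d heart array was the highest, 2.42-fold above f/f heart, and d/d muscle was 1.36-fold below f/f muscle, close to the floor. The second, 1448560_at, was above the floor in f/f muscle alone, at 8.36, and 1447873_x_at on no array. When the floor was raised to the 60th percentile, the Bid difference in heart was 0.65 on the log2 scale, and with no floor and a pseudocount of 16 it was 0.69, both under 2-fold. The median over its 3 probe sets, 2 of them at the floor, was 0.

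Bad, a BH3-only gene whose protein is held inactive by growth factor signals, had probe sets that split in muscle. In f/f and d/d heart, 1416582_a_at read 48.2 and 51.1 and 1416583_at read 32.0 and 30.9, log2 differences of 0.08 and -0.05. In f/f and d/d muscle the first read 13.5 and 29.3, 2.17-fold higher in d/d, and the second read 30.1 and 13.8, 2.18-fold lower. The mean of the probe sets in muscle was -0.01 (SD 1.59), so no direction could be given for the gene.

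Bbc3 encodes PUMA, a BH3-only protein induced by p53. Its probe set 1423315_at read 17.3 in f/f heart, 20.1 in d/d heart, then 14.9 in f/f muscle, and was at the floor in d/d muscle. The heart difference was 0.22 on the log2 scale, and the muscle signal was at least 1.98-fold lower in d/d. Bnip3, on its probe set 1422470_at, read 983 and 922 in f/f and d/d heart and 1414 and 1541 in f/f and d/d muscle. Its log2 differences, -0.09 in heart and 0.12 in muscle, were smaller than the yardstick.

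**Figure D2:**
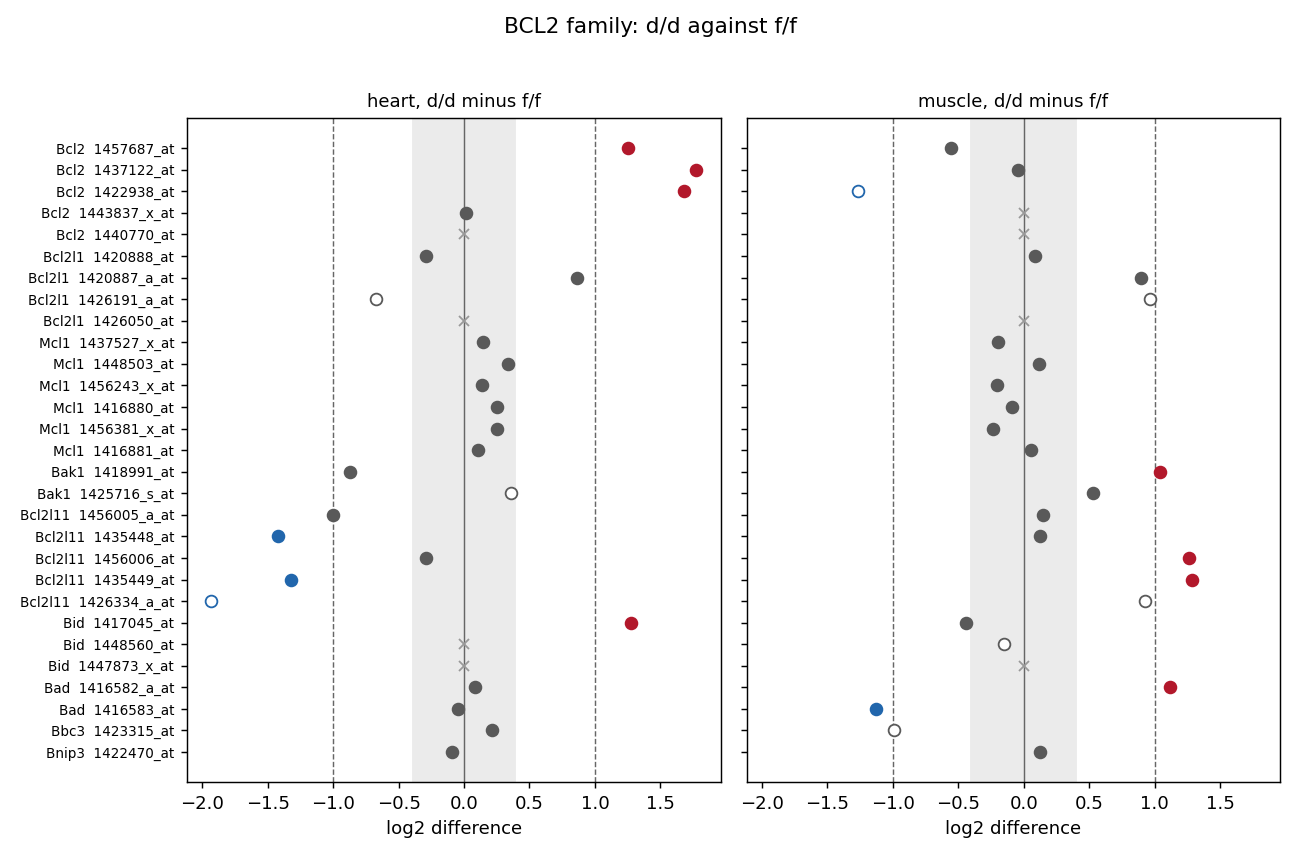
Log2 difference of d/d minus f/f for each family probe set in heart (left) and muscle (right), from 1 pair of arrays each. The grey band is the SD between probe sets of the same gene (0.39 and 0.40), dashed lines mark 2-fold, red and blue are past 2-fold, open circles are lower bounds and crosses were at the floor on both arrays. Bcl2 stands to the right and Bcl2l11 to the left in heart, and the Bad probe sets lie on opposite sides in muscle.

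A limma fit over 28659 probe sets, 25 of them of the family, gave the mean effect of genotype across the tissues, with the tissue as a covariate. After Benjamini-Hochberg adjustment 0 of 25 passed 0.05, and 0% of all probe sets did. At an unadjusted p under 0.05 there were 1298 of all and 1 of the family, Bcl2l1 1420887_a_at, with a log2 effect of 0.88 (SE 0.28), higher in d/d in each of the 2 tissues. Its adjusted p by limma with Benjamini-Hochberg adjustment was 0.9998. With a trend of the variance on the level, limma called 5 of all probe sets and 0 of the family. This fit has 1 residual degree of freedom and counts opposite differences in heart and muscle, which several members had, as error.

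Between the tissues, every family probe set past 2-fold was higher in heart, Bcl2 in both genotypes and Bcl2l11 in f/f mice. With median scaling 2 were lower in d/d mice, and with quantile normalization 1. In f/f mice 9 of 26 measured probe sets were at least 2-fold higher in heart, against 11.3% of all, and 0 at least 2-fold lower, against 7.87%. The 9 were 5 of Bcl2l11, 2 of Bcl2 and 1 each of Bak1 and Bad. In d/d mice 6 of 25 were higher, against 13.3%, and 0 lower, against 10.4%. The 6 were 3 of Bcl2 and 1 each of Bid, Bad and Bbc3. The tissue comparisons use the same arrays as the genotype comparisons, so they are not separate evidence on the hearts. All 5 Bcl2l11 probe sets were at least 2-fold higher in heart in f/f mice, by 1.04 to 2.64 on the log2 scale, and none was in d/d mice, where the differences ran from -0.93 to 0.15. Bcl2 1457687_at was 2.64-fold higher in heart in f/f and 9.25-fold in d/d mice, and 1437122_at 2.48-fold and 8.73-fold. Bcl2 1422938_at was 1.16-fold lower in heart in f/f mice and at least 6.66-fold higher in d/d mice. Bid 1417045_at was 3.74-fold higher in heart in d/d and 1.14-fold in f/f mice, and Bbc3 at least 2.67-fold and 1.16-fold. The probe sets of Bad and of Bak1 disagreed. Bad 1416582_a_at was 3.57-fold higher in heart in f/f mice and 1.74-fold in d/d mice, and 1416583_at was 1.06-fold higher in f/f and 2.24-fold in d/d mice. Bak1 1418991_at was 2.69-fold higher in heart in f/f mice, where 1425716_s_at was at least 1.56-fold lower, and in d/d mice the probe sets were 1.39-fold and 1.75-fold lower. Without scaling, the median of all measured probe sets moved by 0.38 in f/f and 0.41 in d/d toward heart.

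For the tissue effect in the same limma fit, 2 of 25 family probe sets passed, against 11% of all probe sets. They were the brightest 2 of Bcl2, with log2 effects of 2.30 (SE 0.46, adjusted p = 0.0309) and 2.22 (SE 0.46, adjusted p = 0.0346), each higher on both heart arrays than on both muscle arrays. With the variance trend 5 of 25 passed, against 19.5% of all. The added ones were Bad 1416582_a_at and Mcl1 1416881_at, higher in heart by 1.32 and 0.89, and Bnip3, with -0.63 on the log2 scale. In bulk tissue, fewer cells of a type and less RNA per cell cannot be told apart.

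**Figure D3:**
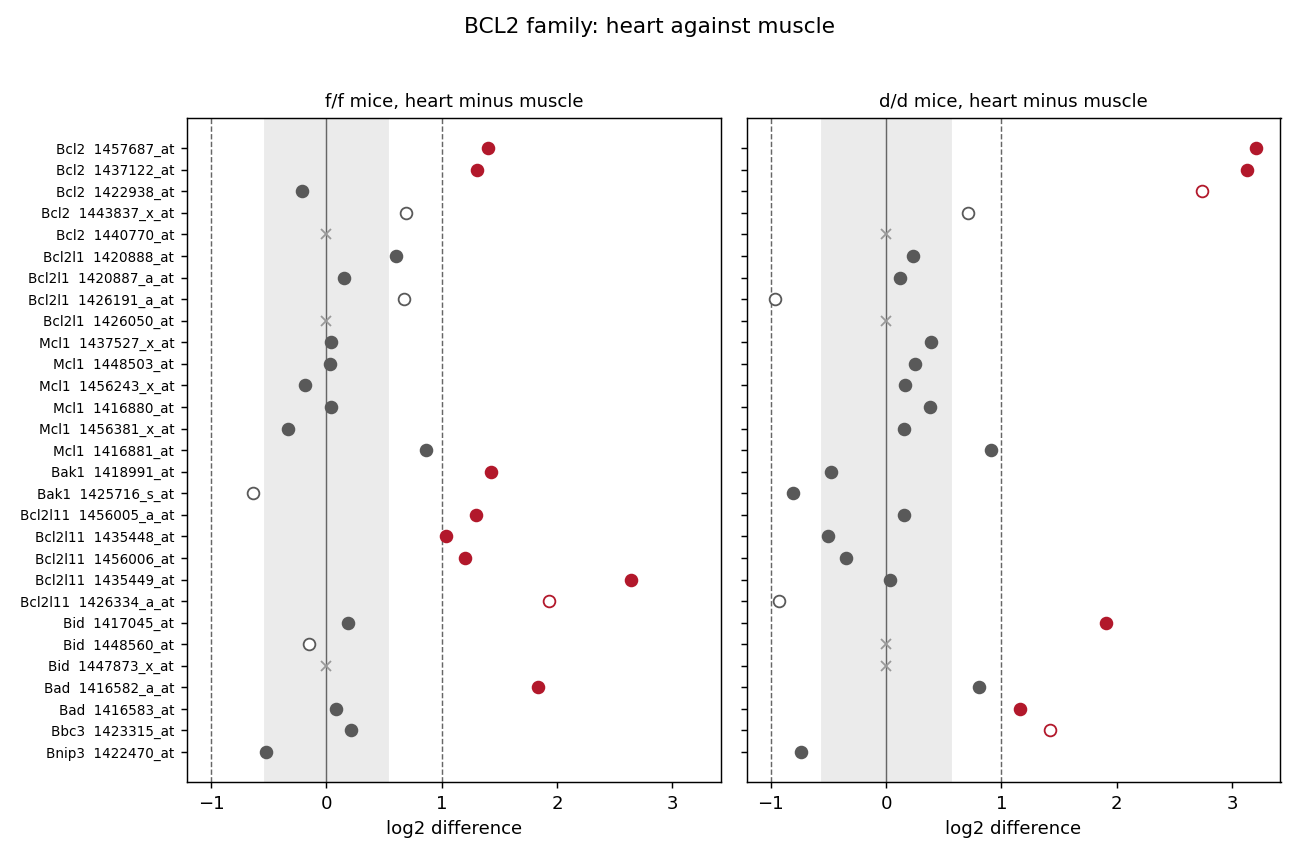
Log2 difference of heart minus muscle for each family probe set in f/f mice (left) and d/d mice (right), from 1 pair of arrays each, with marks as for the genotype plot and bands of 0.53 and 0.56. The 5 Bcl2l11 probe sets lie beyond 2-fold in f/f and inside it in d/d mice, while the brighter Bcl2 probe sets lie further out in d/d mice.

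For other genes of the death pathway, each read by its brightest probe set, few passed 2-fold between genotypes. Of the 10 other BCL2 family genes on the arrays, 9 were measured in heart and 0 passed 2-fold, with a median of -0.14 on the log2 scale beside -0.05 over all 13836 measured genes. On this basis 2 of the 9 family genes, Bcl2 and Bid, were at least 2-fold higher in heart, against 3.94% of all genes, and 0 lower, against 4.22%. The 2 became 1, without Bid, when genes were read by the median of their probe sets, under the 60th percentile floor or with the pseudocount, and the 0 lower became 1 under 4 alternatives and 2 at 1.5-fold. Among the family in muscle 2 genes, Bak1 and Bad, were at least 2-fold higher on the brightest probe set, and 0 were with that floor or the pseudocount. The other Bad probe set differed by -1.13 on the log2 scale in muscle, so the count gives no direction for Bad. In muscle 2 of 8 other BCL2 genes were at least 2-fold higher, against 2.64% of all genes, and 0 lower, against 3.25%. Hrk, a BH3-only gene, read 20.6 in d/d muscle and Bcl2l14 read 16.8, with f/f at the floor, at least 2.75-fold and 2.24-fold higher. Of 17 genes of the apoptosome, caspases and their inhibitors, 0 passed 2-fold in either tissue, with differences from -0.62 to 0.60 in heart and -0.79 to 0.56 in muscle. The same was true of the 12 genes of the outer membrane, pore and mitochondrial fission and fusion, with medians of -0.07 and 0.10. Some dimmer probe sets in these lists did pass 2-fold. In heart they were of Cycs (-1.16 on the log2 scale), Birc6 (-1.23) and Ppif (-1.24), and in muscle of Casp9 (-1.32).

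The death receptor list also holds a related receptor and signalling partners of the receptors. Of its 7 measured genes, each read by its brightest probe set, 1 passed 2-fold in each tissue. The death receptors Fas and Tnfrsf1a did not, at 0.01 and 0.75 in heart and 0.63 and -0.02 in muscle on the log2 scale. The 1 gene was the related Tnfrsf12a, the receptor of the cytokine TWEAK, which is not itself a death receptor. This gene read 241 in the f/f and 810 in the d/d heart, 3.36-fold higher, and 224 and 98.4 in f/f and d/d muscle, 2.27-fold lower in d/d. Its other probe set differed by 1.94 in heart and -1.49 in muscle on the log2 scale. The other probe set of Fadd differed by -1.04 in heart. A list drawn up for p53 and its targets had 13 genes on the arrays, and Trp53, the p53 gene, was not among them. The 13 had a median of 0.35 in heart. Of these, 9 were above 0 and 0 past 2-fold. The list also took in Gadd45b and Gadd45g, at 0.76 and 0.97 in heart. In muscle the median of the 13 was 0.09, and Sesn2, a stress-induced sestrin, was at least 3.41-fold higher on a probe set at 25.6 in d/d. The other probe set of Sesn2 differed by -0.25 in muscle and -1.26 in heart, and another of Gadd45b by -1.03 in muscle. Of 14 regulators of BH3-only genes, among them the FOXO and AKT genes, 0 passed 2-fold in either tissue on the brightest probe set. In heart the other probe set of Trib3 differed by 2.42 on the log2 scale, and another of Akt2 by -1.23. The hypoxia list had medians of 0.03 in heart and -0.04 in muscle. It holds genes induced with Bnip3 when oxygen is low, and also the genes of the hypoxia factors themselves, Hif1a and Epas1. Hif1a differed by 0.92 in heart and Epas1 by 0.16. Egln3, a prolyl hydroxylase, was 2.26-fold lower in d/d muscle, the 1 gene of 17 past 2-fold there, and 0 of 16 were in heart. The other probe set of Egln1 differed by -1.17 in heart. Mitophagy and autophagy genes had medians of -0.14 and 0.11, with 0 of 16 past 2-fold in either tissue on the brightest probe set. Other probe sets differed by up to 1.23 in heart and 1.59 in muscle for Atg7. For Becn1 they reached -1.07 in heart and 1.11 in muscle.

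**Figure D4:**
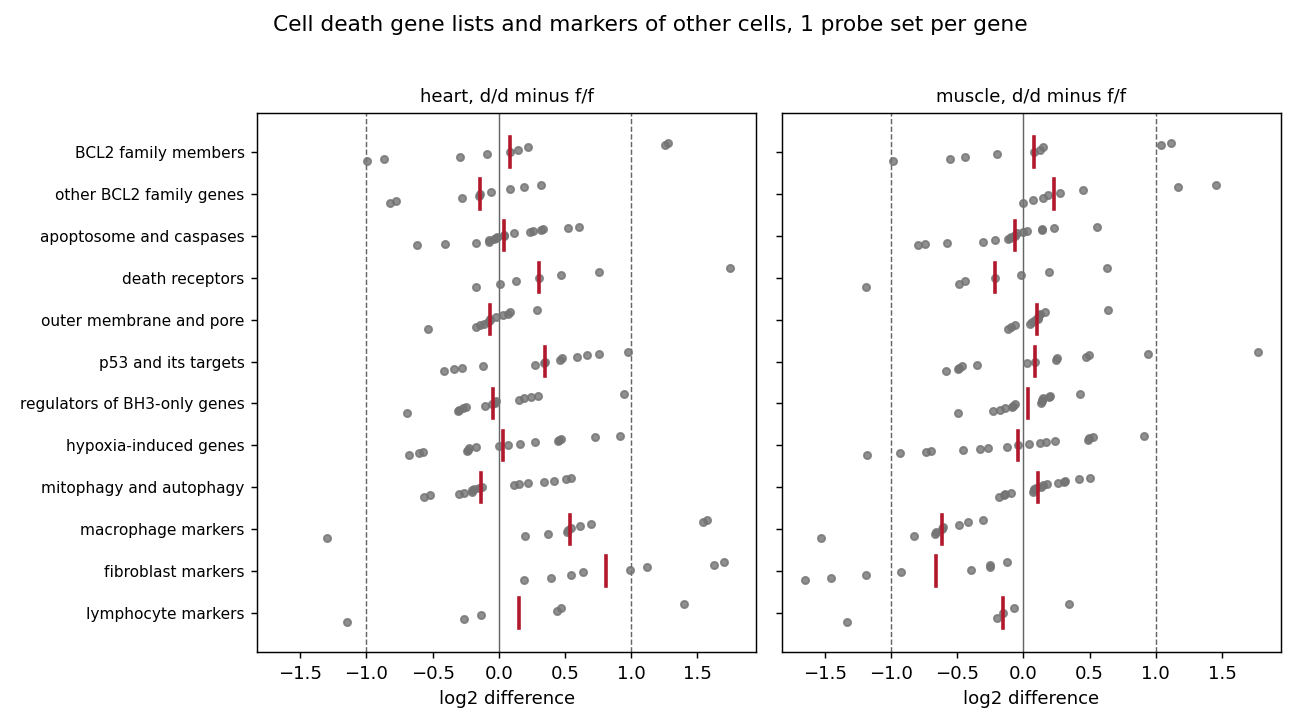
Log2 difference of d/d minus f/f for each measured gene (points, 1 probe set per gene) of 12 gene lists in heart (left) and muscle (right). Red bars are list medians and dashed lines mark 2-fold. On the probe set shown, the caspase, pore, BH3-only regulator and mitophagy lists stay inside 2-fold, while fibroblast markers lie to the right in heart and to the left in muscle. Other probe sets of these lists, not drawn, include some past 2-fold.

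Markers of other cells differed between genotypes beside these results. In heart 8 of 8 fibroblast markers were above 0, with a median of 0.81, and their summed signal was 5428 in the f/f heart and 9332 in the d/d heart. Past 2-fold were the collagen genes Col1a1 (3.08-fold) and Col1a2 (3.26-fold) and Pi16 (2.17-fold). Of 10 macrophage markers 9 were above 0, with a median of 0.54, and the sum was 1787 in the f/f heart and 2644 in the d/d heart. Ctss, a lysosomal protease, was 2.97-fold and the chemokine receptor Cx3cr1 2.90-fold higher in d/d heart, and the scavenger receptor Cd163 was 2.46-fold lower. Endothelial markers had a median of 0.37 in heart, with 6 of 8 above 0 and 0 past 2-fold, and sums of 1621 in f/f and 2077 in d/d. The 3 measured adipocyte markers were lower in d/d heart, the hormone Adipoq 4.47-fold and the lipase Lipe 2.62-fold, with sums of 189 in f/f and 80.1 in d/d.

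Lymphocytes, which make Bcl2 and Bcl2l11, gave dim markers. In f/f heart 4 of 9 and in d/d heart 5 of 9 were above the floor, with sums of 146 and 141, and the T cell receptor genes Cd3d, Cd3e and Cd3g were at the floor on all 4 arrays. The B cell receptor gene Cd79a was 2.21-fold lower and Cd79b at least 2.63-fold higher in d/d heart. Neutrophil markers summed to 97.1 in f/f and 109 in d/d heart, with Csf3r at least 2.49-fold lower. Among genes of the muscle fibres in heart, the natriuretic peptide Nppb was 2.51-fold and Acta1 3.11-fold higher in d/d, and the calcium channel Ryr2 was 2.24-fold and Pvalb at least 2.09-fold lower.

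In muscle the cardiac markers differed too. All 8 measured were below 0, with a median of -1.75, and 6 were at least 2-fold lower in d/d, with sums of 4491 in f/f and 3772 in d/d muscle. The troponin gene Tnni3 was 10.5-fold lower in d/d, Nppb at least 5.29-fold, the myosin-binding protein Mybpc3 4.61-fold and the natriuretic peptide Nppa 4.14-fold. The 8 fibroblast and 9 measured macrophage markers were all below 0 in muscle, with medians of -0.66 and -0.62, and their sums were 6669 and 1074 in f/f against 4247 and 681 in d/d. Pi16 was 3.14-fold, Col1a1 2.73-fold, Col1a2 2.28-fold and Cd163 2.88-fold lower. The 3 measured adipocyte markers had a median of -1.20, with Adipoq 2.30-fold and Retn at least 3.05-fold lower. The immunoglobulin gene Ighm was 2.52-fold and the neutrophil gene Ngp 2.18-fold lower, and S100a8 was 2.42-fold higher. Endothelial markers had a median of 0.09, with 0 of 8 past 2-fold.

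On the brightest probe set, Bcl2, Bid, Mcl1 and Bbc3 had the same signs in heart and muscle as the fibroblast and macrophage lists. Bcl2l11, Bak1, Bcl2l1 and Bnip3 had the opposite ones, and Bad was above 0 in both tissues. The differences of Mcl1, Bcl2l1 and Bnip3 were smaller than the yardstick, as was that of Bbc3 in heart. The part of these other cells, fibroblasts and macrophages among them, and of the cardiac genes in the differences of Bcl2, Bid, Bcl2l11, Bak1 and Bad was not tested.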

How the data were processed

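The 4 arrays were grouped by title and tissue label. The deposited series matrix gives linear intensity values by probe set. The sources used here do not give the authors' steps from scan to intensity. The 64 control probe sets were left out. Arrays were scaled so that all had the mean of their 2% trimmed means. The floor, 7.51, was the mean 40th percentile, and lower signals were raised to it before log2. The values carry no detection call, and the number of arrays limits the precision.

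The platform annotation gave 1 symbol to 34945 of 45037 probe sets and several to 932, and the 9160 it does not list stay unnamed. The annotation's Entrez ids were looked up in a RefSeq table of GRCm38.p6, which held 34754 of the ids and changed 0 symbols. Each of 18193 genes was counted by the probe set brightest in mean log2. All probe sets of the members were named, and genes of other lists when past 2-fold between genotypes, at most 4 per list. Also named were lymphocyte markers at the floor, Acta1 as tissue check, the 4 probe sets of Sod2 and genes that show what a list holds. The members and lists were chosen with earlier results of these data known. The fits used limma 3.58.1 in R 4.3.3 over probe sets above the floor on at least 2 arrays, tested on simulated data. Alternatives covered scaling, floor, fold threshold, probe set choice, filter and variance model.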

Additional observations from a re-analysis of the deposited data

Results flagged for a closer look

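Members whose difference between d/d and f/f had opposite signs in heart and muscle, each larger than the yardstick, are given here. The yardstick pools all genes and is not a member's own SD between probe sets. With 1 array per group the difference between the tissues was not tested. On the log2 scale, Bcl2 1457687_at differed by 1.26 in heart and -0.55 in muscle, and 1422938_at by 1.68 and, at its bound, -1.27. Bid 1417045_at had 1.28 in heart and -0.44 in muscle. Among the probe sets lower in d/d heart and higher in d/d muscle, Bcl2l11 1435449_at had -1.32 and 1.28, and Bak1 1418991_at had -0.87 and 1.04. Values against the floor, which are bounds, were -1.93 and 0.93 for Bcl2l11 1426334_a_at and -0.67 and 0.96 for Bcl2l1 1426191_a_at.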

How the results depend on the processing

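Counts are of family probe sets past 2-fold. A count is listed only where it changed by more than 1.5 times, or from or to 0. Smaller changes, such as the loss of Bid in heart with the 60th percentile floor or the pseudocount, are left out. The share of all probe sets was worked out at 2-fold under the main scaling and floor alone. The counts under other settings therefore cannot be set beside a share of all probe sets. In d/d against f/f heart the 4 higher and 3 lower became 2 and 1 at 3-fold, 6 lower at 1.5-fold, and 1 lower with no floor and a pseudocount of 16. In muscle the 4 higher and 2 lower became 0 and 0 at 3-fold or with a floor at the 60th percentile, 7 higher at 1.5-fold, 0 and 1 with the pseudocount, 4 lower with a floor at the 20th percentile, and 1 lower among probe sets above the floor on both arrays, an alternative chosen after seeing the data. For heart against muscle in f/f mice, the 9 higher became 3 at 3-fold, 5 with the 60th percentile floor and 4 with the pseudocount, and the 0 lower became 1 at 1.5-fold and 3 with the 20th percentile floor. In d/d mice the 6 higher became 3 with the higher floor and with the pseudocount, and the 0 lower became 4 at 1.5-fold, 1 with quantile normalization, and 2 with median scaling and with the lower floor.

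Bad in muscle, 1.12 on its brightest probe set, was -0.0054 with the median over probe sets and -1.13 without probe sets that can share sequence. With a variance trend limma called 5 probe sets in all for genotype in place of 0, and for tissue 5577 in place of 3156, with 5 of the family in place of 2. By gene, the 2 higher in heart ran from 0 to 2 and the 0 lower from 0 to 2, and in muscle the 2 higher from 0 to 2 and the 0 lower from 0 to 1. The cause of these changes was not tested. Over the members' single values, 786 of 866 alternatives stayed within the yardstick of the reported value. The 866 count a gene and its brightest probe set as separate values, and include differences near 0. Of the 80 beyond the yardstick, 2 reversed the sign of a difference past 2-fold. Signals near the floor limit Bid, Bak1, Bbc3 and the dimmer probe sets of Bcl2 and Bcl2l11. No paired analysis was possible because the labels carry no replicate numbers and each group has 1 array.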
